A study of Mus musculus with 2 samples.

Results

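The genes described here make the immunoproteasome and load peptides onto MHC class I molecules, and they were measured in macrophages cultured from mouse bone marrow and exposed to Lipid A in 2 rounds. They are Psmb8, Psmb9, Psmb10, Psme1, Psme2, Tap1, Tap2, Tapbp, Erap1 and Nlrc5, chosen by symbol, and all 10 were found among the 55536 genes of the tables. The macrophages were grown from marrow of C57BL/6J mice, given 100 ng/ml Lipid A, the lipid part of bacterial lipopolysaccharide, for 12 h, left without it for the next 12 h and given 100 ng/ml again for 300 min. This was the only group, with 2 biological replicates of poly(A)-selected RNA. In the labels the free-text description says Lipid A while the treatment field says lipoprotein A, and the labels do not settle the point. Sex and age were not collected. The replicates share a donor identifier but come from separate biosamples, and values from different animals may lie further apart than these do. An untreated or singly treated group was not analysed here, so the levels below describe the twice-exposed state and say nothing of a response.

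The proteasome degrades ubiquitin-tagged proteins in a barrel whose inner rings carry paired catalytic subunits. In immune cells and under interferon signalling, Psmb8, Psmb9 and Psmb10 can be built in at the chymotrypsin-like, caspase-like and trypsin-like positions in place of Psmb5, Psmb6 and Psmb7, and the Psme1 and Psme2 proteins form a ring-shaped cap, PA28, that opens the barrel. The resulting peptides are carried into the endoplasmic reticulum by the Tap1 and Tap2 transporter, bridged to waiting class I molecules by tapasin (Tapbp), and shortened at the N terminus by the aminopeptidase Erap1, while Nlrc5 is a transactivator of class I genes and of several genes of this pathway.

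The libraries held 50503159 (replicate 1) and 46342331 (replicate 2) expected counts, summed over genes. Of 8 macrophage markers, 7 were at 100 TPM or more in both libraries, where TPM is a level corrected for transcript length and scaled to the same total in each library. Dendritic cell markers were under 1 TPM in both libraries for 5 of 6 genes, with Ccr7 highest at 3.68 ± 1.69 TPM, and all 4 B cell markers were under 1 TPM. Of 6 T and NK cell markers 5 were under 1 TPM, the exception being Cd4 at 41.5 ± 1.91 TPM. The 5 neutrophil markers summed to 61.3 and 3.84 TPM in replicates 1 and 2, mostly from S100a9 at 37.9 and 2.23 TPM, while Ly6g, Elane and Mpo were under 1 TPM in both, and the part of these other cells in the levels below was not tested. Because these are bulk samples, fewer cells of a type and less RNA per cell cannot be told apart.

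The genes are clustered in the genome (GRCm38, the mm10 build). Psmb9, Tap1, Psmb8 and Tap2 lie in that order within 34.3 kb on chromosome 17 (34181987 to 34216321), inside the MHC, and Tapbp is on the same chromosome 253 kb away at 33915899 to 33929292. Psme1 (55578123 to 55581529) and Psme2 (55587441 to 55591113) are separated by 5.91 kb on chromosome 14. Psmb10 (105935735 to 105938444) and Nlrc5 (94434356 to 94527272) are on chromosome 8, and Erap1 (74639568 to 74693201) is on chromosome 13. Psmb9 and Tap1 run in opposite directions from start sites that are 226 bases apart in RefSeq, so their promoter windows (250 bases before to 50 after a start site) share 275 bases. In the annotation behind the levels, Psmb9-204, the Psmb9 transcript with the most TPM, begins at 34187764 instead. Its intron 1 runs from 34185798 to 34187249, so the Tap1 window lies inside exon 1 of Psmb9-204 and not before its start. The Tap1 window is shown because most of it belongs to both genes' windows, and the windows of Psmb8, Psme1 and Erap1 are shown because only they, of the 8 genes with a RefSeq window, held a match to a searched motif, given in capitals. Sequences are 5′ to 3′ on the + strand, from RefSeq GRCm38.p6, for chr17:34187306-34187605, chr17:34197945-34198244, chr14:55578244-55578543 and chr13:74639603-74639902.
Tap1 and Psmb9: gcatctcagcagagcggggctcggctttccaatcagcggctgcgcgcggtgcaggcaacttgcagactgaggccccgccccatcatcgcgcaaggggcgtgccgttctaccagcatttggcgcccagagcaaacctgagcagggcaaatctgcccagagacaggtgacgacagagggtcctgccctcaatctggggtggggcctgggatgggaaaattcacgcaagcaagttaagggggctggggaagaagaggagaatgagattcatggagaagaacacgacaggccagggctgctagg
Psmb8: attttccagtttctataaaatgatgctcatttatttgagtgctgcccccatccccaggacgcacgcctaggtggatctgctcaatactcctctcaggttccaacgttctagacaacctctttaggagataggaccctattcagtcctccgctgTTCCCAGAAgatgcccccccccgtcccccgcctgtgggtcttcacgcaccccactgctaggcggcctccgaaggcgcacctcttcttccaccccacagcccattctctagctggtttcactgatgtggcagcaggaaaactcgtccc
Psme1: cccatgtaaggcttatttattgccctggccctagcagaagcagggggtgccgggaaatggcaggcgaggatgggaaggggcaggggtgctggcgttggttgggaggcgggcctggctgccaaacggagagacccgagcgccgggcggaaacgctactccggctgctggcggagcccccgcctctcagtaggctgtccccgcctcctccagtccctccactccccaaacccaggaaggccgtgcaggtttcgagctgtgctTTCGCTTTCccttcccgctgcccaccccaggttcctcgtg
Erap1: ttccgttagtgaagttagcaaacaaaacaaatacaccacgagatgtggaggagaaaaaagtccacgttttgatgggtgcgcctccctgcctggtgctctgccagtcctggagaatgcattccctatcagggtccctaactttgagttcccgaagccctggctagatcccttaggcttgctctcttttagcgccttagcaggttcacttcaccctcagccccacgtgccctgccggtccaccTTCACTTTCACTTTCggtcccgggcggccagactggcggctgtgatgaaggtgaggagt

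Both strands were searched for GAAANNGAA (a core of interferon response elements), TTCNNNGAA (gamma-activated sites), GGANNTTCC (NF-kB) and TGACGTCA (cAMP response elements). GAAANNGAA was matched 2 times in overlap across the RefSeq start site of Erap1, beginning 9 and 3 bases before it. In Erap1-201, the Erap1 transcript with the most TPM, exon 1 runs from 74639568 to 74639893, so both matches lie inside that exon. In Psme1 GAAANNGAA was matched 1 time, beginning 10 bases after the RefSeq start site. TTCNNNGAA was matched 1 time in Psmb8, beginning 97 bases before the RefSeq start site. That window lies inside intron 1 (34197762 to 34198369) of Psmb8-203, the Psmb8 transcript with the most TPM, and so not before its start. Among 32851 promoter windows of the same length, 8.56% held GAAANNGAA, 8.30% TTCNNNGAA, 4.26% GGANNTTCC and 1.79% TGACGTCA. The last 2 motifs had no match in the windows of these 8 genes, which says only that these letters were not in those windows. Tap2 and Nlrc5 had no entry and are named only.

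Transcripts of the pathway were abundant. At 100 TPM or more in both libraries were 8 of the 10 genes, beside 12.2% of the 9781 protein-coding genes with at least 1 TPM in both. Their median gene TPM was 312, with 313 in replicate 1 and 311 in replicate 2, beside 16.9 for those protein-coding genes. The other 2 were Tap2, which sat at the line, and Erap1. From highest to lowest the mean gene TPM ran Psme2, Tapbp, Psmb8, Psme1, Psmb10, Tap1, Psmb9, Nlrc5, Tap2, Erap1. Of the 9 neighbouring steps in this order, 1 had libraries that overlapped, namely Tapbp and Psmb8, which therefore did not differ beyond their spread.

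**Figure D1:**
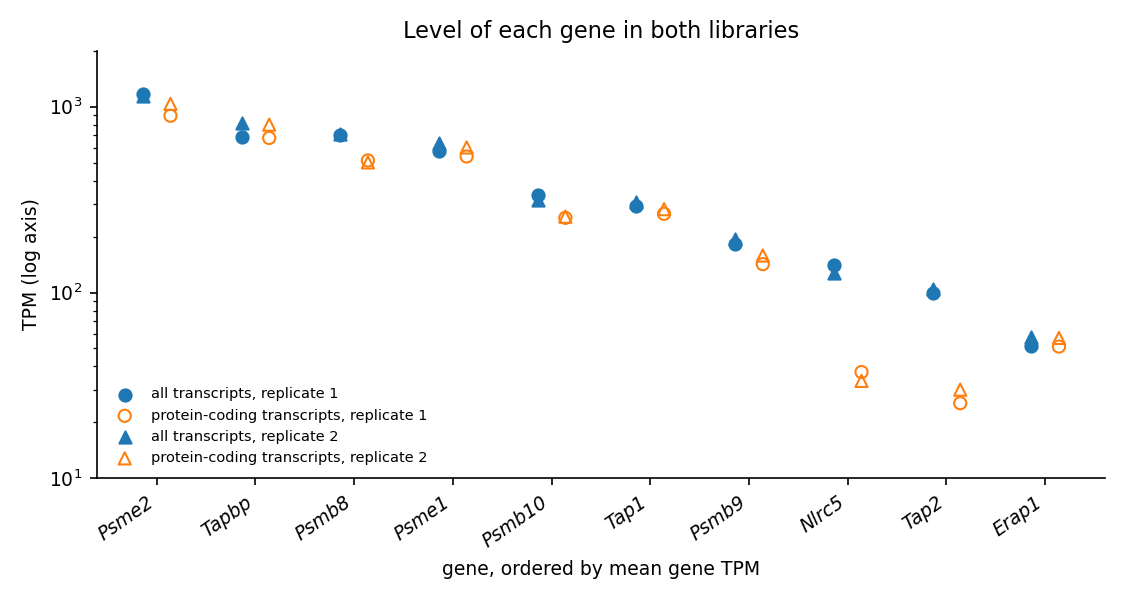
Level of each gene in TPM on a log axis, with filled symbols for all annotated transcripts of the gene, open symbols for its protein-coding transcripts alone, circles for replicate 1 and triangles for replicate 2. The libraries lie close together for every gene, Psme2 is highest, and the open symbols of Nlrc5 and Tap2 fall far below the filled ones.

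The catalytic immunosubunits were present at unequal levels. Psmb8, which takes the chymotrypsin-like position, was at 702 and 709 TPM in replicates 1 and 2 (705 ± 5.40 TPM, SD, n = 2), ranking 176th among the 9781 protein-coding genes. Psmb10, at the trypsin-like position, was at 335 and 316 TPM (326 ± 13.5 TPM). Psmb9, at the caspase-like position, was at 182 and 193 TPM (188 ± 7.79 TPM). The values of these 3 genes did not overlap between genes in either library.

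Set beside the constitutive subunit of the same position within each library, the immunosubunits fell on both sides. Psmb8 was above Psmb5, which was at 143 and 111 TPM, by 4.91-fold in replicate 1 and 6.42-fold in replicate 2. Psmb10 was above Psmb7, which was at 161 and 168 TPM, by 2.08-fold and 1.89-fold. Psmb9 was below Psmb6, which was at 520 and 641 TPM. On the log2(TPM + 1) scale the differences were 2.48 ± 0.27 for Psmb8 over Psmb5, 0.98 ± 0.10 for Psmb10 over Psmb7 and -1.62 ± 0.15 for Psmb9 over Psmb6. As a share of both subunits of a position, Psmb8 took 83.1% and 86.5%, Psmb10 67.5% and 65.3%, and Psmb9 25.9% and 23.2% of the TPM. These are shares of transcripts, and the proteins were not measured.

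**Figure D2:**
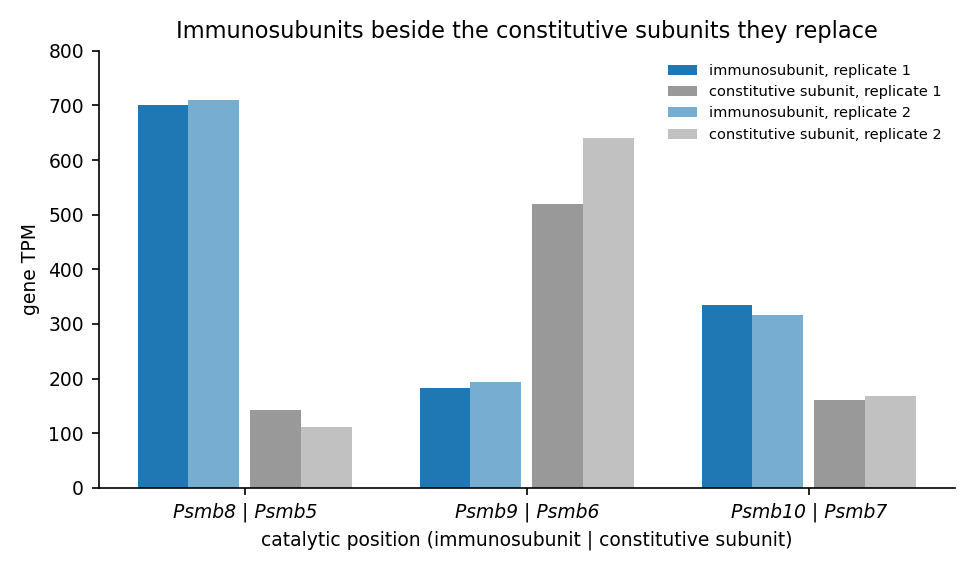
Gene TPM of each immunosubunit (blue) beside the constitutive subunit of the same catalytic position (grey), with dark bars for replicate 1 and pale bars for replicate 2. Psmb8 and Psmb10 stand above their partners and Psmb9 stands below Psmb6 in both libraries.

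The PA28 subunits were among the most abundant of the set. Psme2 was at 1172 and 1144 TPM (1158 ± 19.4 TPM), the highest of the 10 and 98th among protein-coding genes. Psme1 was at 575 and 639 TPM (607 ± 44.8 TPM), and its level was 0.491 and 0.558 times that of Psme2. The difference in log2(TPM + 1) between Psme1 and Psme2 was -0.93 ± 0.13. Psme3, which makes a related nuclear cap, was at 60.8 and 74.7 TPM, so Psme1 was 9.46-fold and 8.55-fold above it. Gene TPM of Psme2 was slightly lower in replicate 2 although its scaled count was higher there. Psme2-203, a retained-intron fragment of 185 nt, received 232 TPM from 81.8 expected counts in replicate 1 and 59.3 TPM from 17.3 expected counts in replicate 2, while the protein-coding transcripts of Psme2 were at 894 and 1035 TPM.

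Of the transporter genes, Tap1 was the higher. Tap1 was at 291 and 305 TPM (298 ± 10.2 TPM) and Tap2 at 99.6 and 105 TPM (102 ± 3.79 TPM), although their proteins form a pair. Tap1 stood 2.92-fold and 2.91-fold above Tap2, a log2(TPM + 1) difference of 1.54 in replicate 1 and 1.53 in replicate 2. Over protein-coding transcripts alone the difference was 3.33 and 3.19, since most Tap2 TPM was assigned to a retained-intron transcript. Psmb9, whose RefSeq promoter window overlaps that of Tap1, was at 0.627 and 0.633 times the Tap1 level, a log2(TPM + 1) difference of -0.66 ± 0.01. On gene TPM both ratios were nearly the same in the 2 libraries, whereas by scaled counts Psmb9 was lower and Tap1 higher in replicate 2, with log2 ratios of -0.08 and 0.06.

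Tapbp, the tapasin gene, was at 690 and 814 TPM (752 ± 87.3 TPM), 163rd among protein-coding genes and with the widest gap in TPM between libraries among the 10. Tapbpl, the related peptide editor TAPBPR, was at 43.7 and 48.5 TPM, so Tapbp was 15.8-fold and 16.8-fold above it. Erap1 was at 51.7 and 57.7 TPM (54.7 ± 4.20 TPM), the lowest of the 10. Nearly all of the gap between its libraries lay outside Erap1-201, which was at 49.4 and 49.7 TPM. Lnpep, which encodes an aminopeptidase of the same family that trims peptides in endosomes, was at 31.2 TPM in each library, and Erap1 was 1.66-fold and 1.85-fold above it.

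Nlrc5, the class I transactivator, was at 141 and 128 TPM (134 ± 9.20 TPM). Ciita, its class II counterpart, was at 2.19 and 6.75 TPM. Nlrc5 was therefore 64.2-fold above Ciita in replicate 1 and 18.9-fold in replicate 2, a log2(TPM + 1) difference of 4.76 ± 1.00. Over protein-coding transcripts alone the difference was smaller, at 3.66 and 2.22. The log2 ratio of replicate 2 over replicate 1, from scaled counts, was 1.52 for Ciita and -0.16 for Nlrc5.

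The other proteasome genes gave a frame for these levels. The 11 subunits shared by both forms of the core barrel were all at 100 TPM or more in each library. Their median was 217 TPM, and they ran from Psmb1 at 115 ± 8.55 TPM to Psma6 at 398 ± 30.8 TPM. Psmb8 thus stood above every shared subunit, and Psmb9 below that median. Of 18 subunits of the ATP-dependent cap, 10 reached 100 TPM in each library. The median here was 119 TPM, with levels from Psmd3 at 68.8 ± 3.25 TPM to Psmd8 at 266 ± 48.1 TPM. Of 8 other activators, assembly factors and an inhibitor, only Pomp reached 100 TPM. Pomp, the chaperone of barrel assembly, was at 545 and 530 TPM, and the lowest was the assembly chaperone Psmg1 at 9.03 ± 0.35 TPM. Psmb11, the thymus-specific subunit, had 0 counts in both libraries, which allows up to 3 counts, or 0.0594 and 0.0647 CPM (counts scaled to the library total).

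The loading partners were also abundant. Calr was at 552 and 736 TPM (644 ± 131 TPM), and 3 of the 4 listed partners (Calr, Canx and Pdia3, chaperones of class I folding and loading, and Tapbpl) were at 100 TPM or more in both libraries. The class I chains lay far above the loading genes, from H2-D1 at 4724 ± 46.6 TPM to B2m, the light chain, at 13490 ± 78.6 TPM. None of 7 other peptide-trimming peptidases reached 100 TPM. They ranged from the cytosolic Thop1 at 5.19 ± 0.49 TPM to Nrdc at 54.6 ± 0.52 TPM, close to Erap1.

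Regulators of the pathway were mostly lower than the genes of the set. Of 15 listed, 4 were at 100 TPM or more in both libraries, and the median over the list was 54.3 TPM. Irf1, an activator of several of these promoters, was at 259 and 270 TPM. Among 8 interferon and receptor genes the highest was Ifnar2, a chain of the type I interferon receptor, at 184 ± 11.3 TPM. Ifng was at 0.61 TPM in replicate 1 and listed at 0 in replicate 2. Ifnb1 was at 11.3 and 5.91 TPM, with a log2 ratio of -0.93.

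No gene of the set differed much between the libraries. None of the 10 was at least 2-fold apart, beside 4.21% of 12543 genes, and none was at least 1.5-fold apart, beside 13.2%. The median absolute log2 ratio of replicate 2 over replicate 1, from counts scaled by TMM factors, was 0.08 for the 10 and 0.21 over all 12543 genes. Those genes were not matched to the 10 in number of reads. The same median was 0.09 for the 11 shared subunits of the core barrel and 0.13 for the 18 subunits of the ATP-dependent cap. For the 3 constitutive catalytic subunits it was 0.31. In these 3 lists too, 0 genes were at least 1.5-fold apart, so closeness of the libraries was not particular to the 10. Ratios ran from -0.16 for Nlrc5 to 0.22 for Tapbp. The counting interval of the ratio left out 0 for 8 of the 10, with 6 higher in replicate 2 and 2 in replicate 1, beside 57.8% of all genes, and this interval narrows with the number of reads.

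The libraries differed by more than counting error in opposite directions for different genes of the pathway. Tapbp had 57954 counts in replicate 1 and 62467 in replicate 2, a log2 ratio of 0.22 (95% counting interval 0.21 to 0.24). Psme2 had 23209 and 24581 counts, with a ratio of 0.20 (0.17 to 0.23). Psme1 had 17359 and 17661 counts, with a ratio of 0.14 (0.11 to 0.17). Nlrc5, on the other side, had 13284 and 10987 counts, with a ratio of -0.16 (-0.19 to -0.12). Psmb9 had 6644 and 5792 counts, with a ratio of -0.08 (-0.13 to -0.03), but its gene TPM ran the other way, from 182 to 193 TPM, and from 172 to 175 TPM in the second quantification, so its direction depended on the measure. Tap2, Tap1 and Psmb8 were higher in replicate 2 by ratios of 0.08, 0.06 and 0.04, and the intervals of Erap1 and Psmb10 included 0. All 4 loading partners were higher in replicate 2, from 0.10 to 0.27 on the log2 scale. So were 4907 of the 9775 protein-coding genes with a ratio and at least 1 TPM in both libraries.

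**Figure D3:**
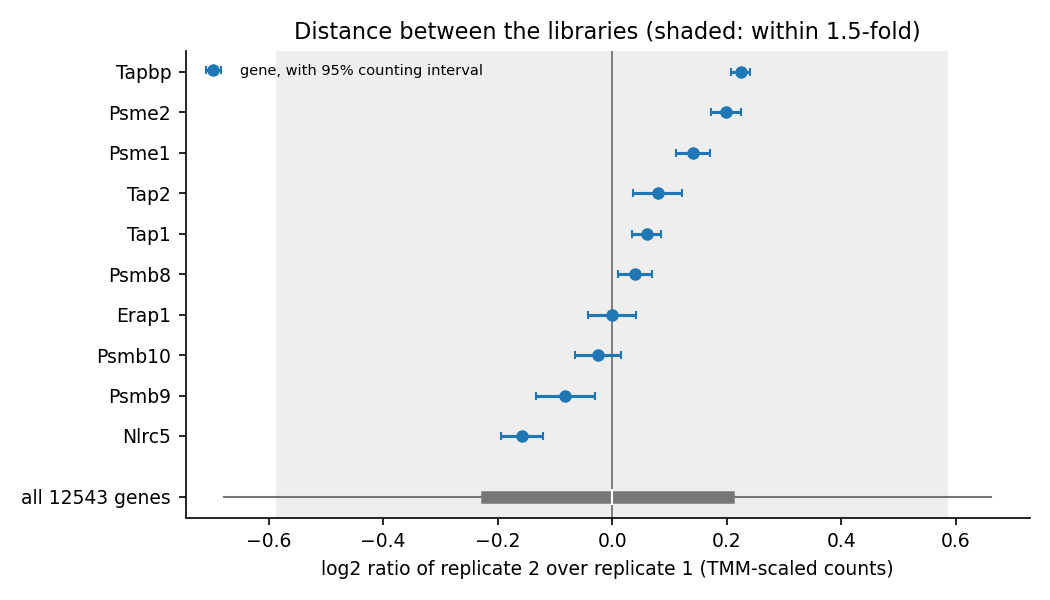
Log2 ratio of replicate 2 over replicate 1 from TMM-scaled counts for each gene, with its 95% counting interval, above the spread of all 12543 genes (thick bar from the 25th to the 75th percentile, thin line from the 5th to the 95th, white tick the median). All 10 genes lie inside the shaded 1.5-fold range, from Nlrc5 at -0.16 to Tapbp at 0.22.

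The 10 genes have 80 annotated transcripts, and the annotated class of the transcripts changed the picture for Tap2 and Nlrc5. Protein-coding transcripts made up 98.9% of Erap1 TPM, 98.3% of Tapbp, 94.2% of Psme1 and 91.6% of Tap1, taken as means of both libraries. For Psme2, Psmb9, Psmb10 and Psmb8 the means were 83.4%, 79.9%, 78.1% and 72.0%. For Tap2 and Nlrc5 the means were 27.0% and 26.4%. The Nlrc5 share depended on the measure, at 40.8% and 45.7% of TPM in the second quantification and at 72.6% and 73.7% of expected counts, which are not corrected for length, while that of Tap2 was 24.7% and 29.3% of TPM and 31.8% and 35.4% of expected counts. A share of TPM under 50% in the first quantification was found in 2 of 10 genes, beside 6.67% of 5906 protein-coding genes with at least 10 TPM and several transcripts, and the same 2 genes had a leading transcript that is not protein-coding, beside 6.25%. The median coding share was 81.7% for the 10 and 96.5% for those genes. Shares of the genes near this median also depended on the measure. In the second quantification Psmb10 was at 88.7% and 91.2%, Psmb9 at 69.9% and 68.5% and Psmb8 at 71.1% and 69.1%. The Psme2 share was 76.3% in replicate 1 and 90.5% in replicate 2 in the first quantification, and 97.1% and 97.7% of expected counts.

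**Figure D4:**
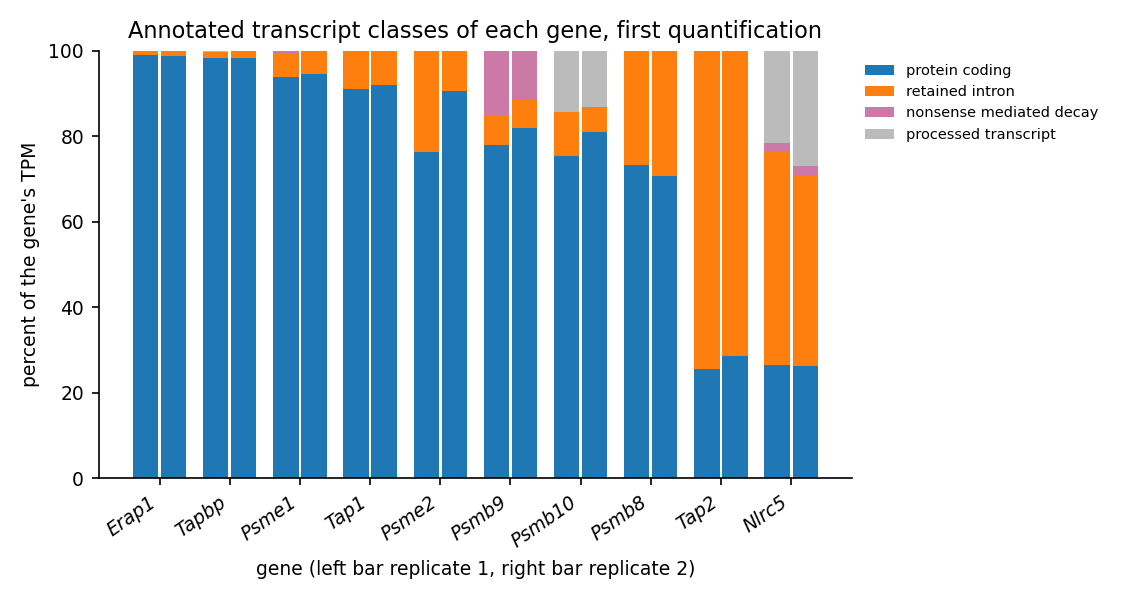
Percent of each gene's TPM assigned to protein-coding, retained-intron, nonsense-mediated decay and processed transcripts in the first quantification, with replicate 1 as the left bar and replicate 2 as the right bar. Erap1 and Tapbp are almost wholly protein-coding, whereas retained-intron transcripts hold 73.0% of Tap2 and 47.3% of Nlrc5.

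On protein-coding transcripts alone the order of the genes changed. Psme2 was at 965 ± 100 TPM, Tapbp at 740 ± 86.2 TPM, Psme1 at 572 ± 45.1 TPM and Psmb8 at 508 ± 8.75 TPM. Nlrc5 fell from 8th to 9th place, at 37.3 and 33.5 TPM, and Tap2 came last, at 25.4 and 30.0 TPM, both below Erap1 at 51.2 and 57.0 TPM. No neighbouring pair in this order overlapped between libraries, and 7 of the 10 genes were at 100 TPM or more in both. The Tap1 to Tap2 difference widened to 3.26 ± 0.11 in log2(TPM + 1), the Nlrc5 to Ciita difference narrowed to 2.94 ± 1.02, and that of Psmb8 to Psmb5 to 2.01 ± 0.23. This restriction was chosen after seeing the data.

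Tap2-202, annotated as a retained-intron transcript of 2561 nt, was the leading Tap2 transcript at 74.2 and 75.0 TPM, or 74.5% and 71.4% of the gene. Tap2-201, the full coding transcript of 3442 nt, was at 25.0 and 29.7 TPM. By expected counts Tap2-202 held 68.2% and 64.6%. The second quantification, made from the reads separately, gave it 70.0% and 67.5%. Of Tap2-202, 93.7% is also in Tap2-201, and the bases that tell them apart are 162 of intron 6 and 1043 of Tap2-201, nearly all at the start of its exon 1. Psmb8-205, the retained-intron transcript of Psmb8, held 24.4% and 27.3%, beside 70.5% and 67.4% for the coding Psmb8-203. It keeps intron 3 of 190 nt and also a longer last exon, together 435 bases that Psmb8-203 lacks. The second quantification gave Psmb8-205 25.1% and 28.6%.

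Introns are shown because their inclusion separates these transcripts from the coding ones, and the capitals mark the first stop codon met when the reading frame of the coding transcript runs on into the intron. Both are 5′ to 3′ on the + strand of GRCm38, read from the GENCODE M21 transcript sequences, for chr17:34212068-34212229 and chr17:34199381-34199570. The Tap2 intron has a GC content of 67.3% and a stop codon starting at its base 7, and the Psmb8 intron 56.8% and a stop codon starting at its base 60.
Tap2 intron 6: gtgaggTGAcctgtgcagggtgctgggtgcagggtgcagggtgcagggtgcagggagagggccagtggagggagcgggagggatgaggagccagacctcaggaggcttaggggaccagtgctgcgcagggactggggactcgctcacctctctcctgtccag
Psmb8 intron 3: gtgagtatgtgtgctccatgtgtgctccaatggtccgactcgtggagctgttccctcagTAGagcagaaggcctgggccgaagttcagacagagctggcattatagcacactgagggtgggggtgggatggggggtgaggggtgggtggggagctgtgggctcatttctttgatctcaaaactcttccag

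**Figure D5:**
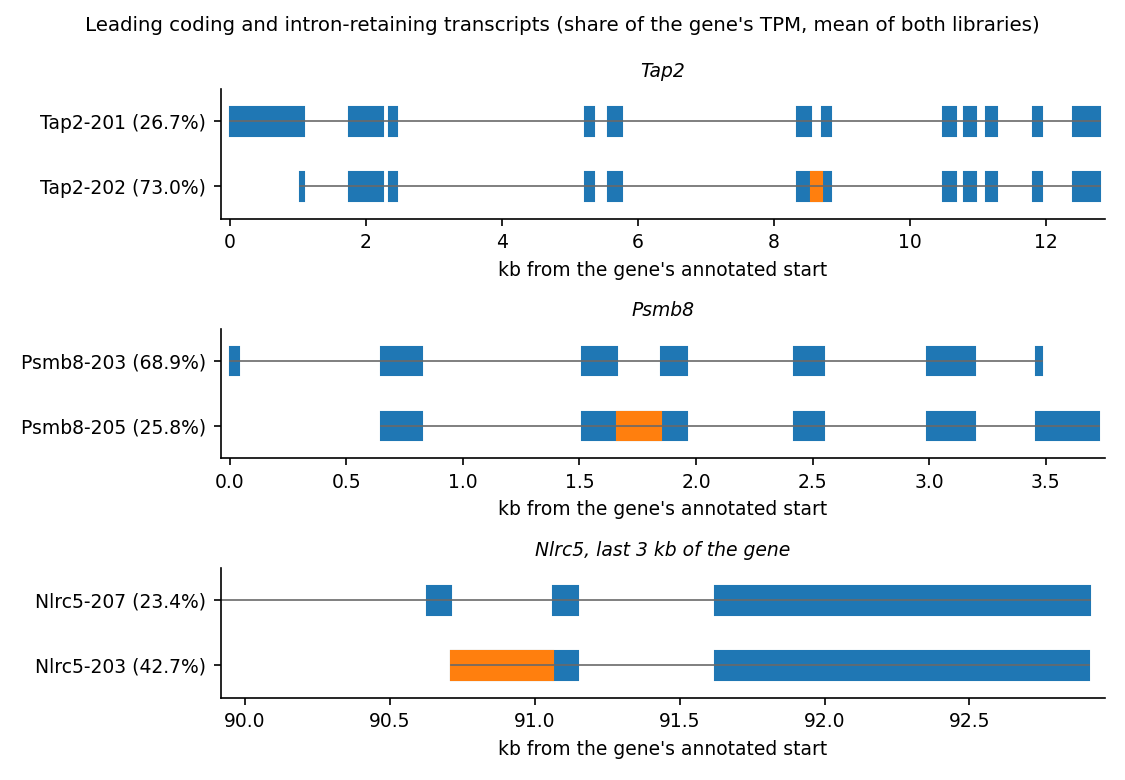
Exons (blue) and whole retained introns (orange) of the leading coding and intron-retaining transcripts of Tap2, Psmb8 and the 3′ end of Nlrc5, against distance in kb from the annotated gene start, with each transcript's mean share of gene TPM. Tap2-202 differs from Tap2-201 by intron 6 and a short exon 1, and Nlrc5-203 covers only the end of the gene.

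For Nlrc5, 4 transcripts held 5% or more of TPM in both libraries, the most of any of the 10 genes. Nlrc5-203, a retained-intron transcript of 1727 nt with 2 exons at the 3′ end that begins with intron 51, took 43.9% and 41.6% of TPM. Nlrc5-202, annotated as protein-coding, is nearly the same sequence of 1721 nt and holds 351 of the 353 bases of intron 51. It took 0.28% and 0% of TPM, and 1.73% and 6.18% in the second quantification. The annotated class of this 3′ part therefore rests on very few bases. Nlrc5-207, the coding transcript of 7578 nt and 53 exons, took 20.8% and 26.1%, at 29.2 and 33.3 TPM. By expected counts the order was the other way, with 7763 and 8068 counts for Nlrc5-207 and 3275 and 2579 for Nlrc5-203. The short processed transcripts Nlrc5-209 (346 nt) and Nlrc5-208 (557 nt) took 16.1% and 17.2%, and 5.50% and 9.83%, on at most 124 expected counts each in either library. In the second quantification Nlrc5-207 led with 37.7% and 39.4%, above Nlrc5-203 with 31.4% and 24.5%, and it was the only leading transcript among the 10 genes that changed between quantifications.

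Among the remaining genes 1 coding transcript led throughout. Psme1-208 took 93.5% and 93.3% of Psme1, Erap1-201 95.4% and 86.1% of Erap1, Tapbp-206 87.4% and 88.0% of Tapbp and Psmb10-201 75.3% and 81.0% of Psmb10. Psme2-208 took 75.7% and 89.8% of Psme2, beside 19.8% and 5.19% for Psme2-203. Tapbp-201, at 10.3% and 9.80%, contains every base of Tapbp-206 and 309 more, of which 3 are at the junction of exons 6 and 7. Psmb9-204 took 71.7% and 63.9% of Psmb9, and Psmb9-207, annotated for nonsense-mediated decay, 15.1% and 11.6%. Psmb9-202, a coding transcript of 433 nt that was under 5% in replicate 1 and is named after its values were seen, took 4.94% and 17.0% on 57.6 and 196 expected counts. Psmb10-203, a processed transcript of 426 nt, took 14.4% and 13.1% of TPM and 3.46% and 2.81% in the second quantification. Tap1-206 took 68.0% and 77.1% of Tap1, and Tap1-203, a retained-intron transcript of 757 nt, 5.33% and 5.76%. Tap1-201 took 20.6% and 11.9% in the first quantification and 4.42% and 4.91% in the second.

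Both quantifications gave like gene levels. None of the 10 genes was at least 1.5-fold apart between them, beside 1.28% of 6274 protein-coding genes with at least 10 TPM. The second was lower for 9 of 10 genes, with a median log2 ratio of -0.13 beside -0.05 over those 6274 genes, and the range was -0.34 for Nlrc5 to 0.01 for Tap2. In the second quantification Psmb10 and Tap1 overlapped between libraries, as did Nlrc5 and Tap2, whereas Tapbp and Psmb8 did not.

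Shared sequence limits how well some genes can be told from others. Of the 31-base words in Psme2-208, 66.2% also occur in Psme2b, a copy on chromosome 11 (48945354 to 48946190), which was itself given 943 and 787 counts, or 4.06% and 3.20% of the Psme2 counts. Psme1-208 shares 22.1% of its words with other genes, 15.5% with the pseudogene Gm7776, which had 0 counts in both libraries. Erap1-201 shares 14.3% with the end of Cast, a gene on the opposite strand at 43.9 and 52.5 TPM. Psmb9-204 and Tap1 overlap by 212 bases on opposite strands, which is 13.8% of the words of Psmb9-204, and the strand handling of the counts is not given in the sources used here. Tap2-201 shares 12.1% with the opposite-strand transcript Gm15821, which was at 1.99 and 1.13 TPM. Among the partners, 74.0% of the words of Psmb5 occur in other genes, mostly the pseudogene Gm3375 with 1 and 3 counts, and 33.5% of those of Psmb7, mostly in Nek6 at 7.81 and 11.2 TPM. Psmb10-201 shared no word with any other gene, and Nlrc5-207 shared 0.172%.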

How the data were processed

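Poly(A) RNA-seq of 2 libraries of 1 group was analysed. The deposited gene and transcript tables hold expected counts and TPM, per the file headers, and a further deposited transcript table holds estimated counts and TPM made from the reads directly. The READMEs name mm10 and GENCODE M21. Aligner, quantifiers, strand setting and their versions stay not given in the sources used here. Members and lists were chosen with earlier results of these data known, and a transcript was named if it led its gene or held at least 5% of it in both libraries. Levels are gene TPM, as mean ± SD (n = 2). Expected counts were rounded, filtered with filterByExpr and scaled by TMM in edgeR 4.0.16 (R 4.3.3, prior count 0.5), with DESeq2 1.42.0 size factors as an alternative. Pair ratios used a pseudocount of 1 TPM. With 1 group there was no test. Exact 95% Clopper-Pearson intervals cover counting error only. The list symbol Nrdc was matched through a RefSeq synonym. The ratio script was tested on simulated data. Python 3.11.15 ran the other steps, with SciPy 1.17.1 for intervals, pandas 2.3.3 and NumPy 2.4.6 for tables and matplotlib 3.10.9 for plots.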

Additional observations from a re-analysis of the deposited data

How the results depend on the processing

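The number of genes of the set at least 2-fold or 1.5-fold apart between libraries stayed at 0 without a count filter, with a mean count of 100 or more, with DESeq2 size factors and with library totals. Over all genes the 2-fold count of 528 became 5481 without a filter, which admits genes of very few reads, and 196 among genes averaging at least 100 counts. The 1.5-fold count of 1653 became 7555 and 747. The median level of 312 TPM became 270 in the second quantification, 334 with TPM scaled over protein-coding genes and 264 over protein-coding transcripts alone.

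No pair ratio changed direction. In the second quantification the log2 difference moved by more than its spread to 0.84 for Psmb10 over Psmb7, -0.75 for Psme1 over Psme2, 2.89 for Psme1 over Psme3, 1.38 for Tap1 over Tap2 and -0.63 for Psmb9 over Tap1. Over protein-coding transcripts it moved to 2.01 for Psmb8 over Psmb5, -1.85 for Psmb9 over Psmb6, 0.63 for Psmb10 over Psmb7, -0.75 for Psme1 over Psme2, 3.26 for Tap1 over Tap2, -0.86 for Psmb9 over Tap1 and 2.94 for Nlrc5 over Ciita. Tap1 over Tap2 became 1.54 with a pseudocount of 0.1 or 0. The causes were not tested. Leaving out either replicate moved no level, pair ratio or share by more than 1 SD, which with 2 replicates holds by construction. No paired analysis was possible because there was only 1 group. With 2 libraries of 1 donor identifier, the SDs are imprecise.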

Other observations

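Tap1 and Tap2, neighbours on chromosome 17 whose products form a pair, have matching exon lengths. Exon 1 of Tap1-206 was set beside exon 2 of Tap2-201 and so on in order, and 8 of 11 exon pairs had the same length. The shortest matching pair had 115 bases (exon 2 of Tap1 and exon 3 of Tap2). The longest had 206 bases (exon 4 of Tap1 and exon 5 of Tap2). The exons differed in length at both ends and for exon 9 of Tap1 (163 bases) against exon 10 of Tap2 (160 bases).

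A smaller part of the transcript differences lay just before the matching exon of 129 bases in Tap2 and within it in Tap1. Whether other exons would give as close a match was not tested. In Tap2 the exon of 129 bases is exon 7, and the intron kept by Tap2-202 is the one just before it. In Tap1 it is exon 6, and Tap1-201 leaves out 84 bases within it (chromosome 17, 34192858 to 34192941), a number divisible by 3. Most differing bases lie elsewhere: Tap2-202 also starts 1040 bases into exon 1 of Tap2-201, and of the 339 bases that Tap1-201 lacks, 249 are at its 5′ end. Tap1-201 held 16.2% ± 6.18 of Tap1 TPM in the first quantification and 4.66% ± 0.34 in the second, so its share differed between the quantifications, while that of Tap2-202 was 73.0% ± 2.19 and 68.8% ± 1.75.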
